A study of Mus musculus with 6 samples.

Results

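Regulators of G protein signalling (RGS proteins) were examined in gonadal white adipose tissue (GWAT) of obese mice with and without Fsp27, the lipid droplet protein encoded by *Cidec*. The family genes described here are *Rgs1*, *Rgs2*, *Rgs3*, *Rgs4*, *Rgs5*, *Rgs10*, *Rgs14*, *Rgs16*, *Rgs18* and *Rgs19*, 10 genes in all. They were chosen by measured values of the same comparison, because *Rgs1* had the second largest decrease on these arrays, and the others were added as relatives of leukocytes, stroma and the vessel wall. Each gene was represented by its single-symbol probeset with the highest mean, which was available for 9 of the 10 genes, among 19937 genes measured in the same way. *Rgs10* was not analysed here. The arrays held RNA from chow-fed male mice aged 4 months. One group was *ob/ob*, which lacks leptin, and the other was *ob/ob/Fsp27*-/-, which lacks leptin and Fsp27. Leptin deficiency was therefore common to both groups, the loss of Fsp27 was not limited to fat, and lean mice were not part of the comparison. There were 3 arrays per genotype on the Affymetrix Mouse Gene 1.0 ST platform, and by the study's methods the RNA of 3 mice was combined for each of them. An array was taken as 1 replicate, and differences between single mice cannot be seen. Values are log2 levels from the Robust Multi-array Average (RMA) algorithm, and every log2 fold change is *ob/ob/Fsp27*-/- minus *ob/ob*.

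Heterotrimeric G proteins carry signals from 7-transmembrane receptors, and the signal lasts as long as the Gα subunit holds GTP. RGS proteins bind active Gα subunits through a conserved RGS box and speed up GTP hydrolysis, which shortens the response to chemokines, catecholamines, prostaglandins and other ligands. Small members of the R4 subfamily, to which 7 of the 10 genes belong, consist of little more than the RGS box and act mainly on the Gi and Gq classes. *Rgs10* and *Rgs14* belong to the R12 subfamily, and *Rgs19* to the RZ subfamily. Because they differ in the cells that express them, RGS genes are known as marks of cell types: *Rgs1* and *Rgs18* of leukocytes, the latter also of platelets, and *Rgs5* of pericytes, the contractile cells of small vessels.

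The array medians lay between 6.02 and 6.10. *Cidec* itself did not separate the genotypes. It read 11.49, 11.78 and 11.98 on the *ob/ob* arrays and 11.34, 11.51 and 11.53 on the *ob/ob/Fsp27*-/- arrays (limma adjusted p = 0.157). Where its probes lie relative to the deleted part of the gene is not given in the sources used here, so genotype rests on the labels. *ob/ob/Fsp27*-/- array 1 stood apart by genes of ciliated epithelium. Of 18 such genes listed after this was seen, 18 were highest on that array, with a mean level of 6.68 against 5.08 to 5.53 on the other 5 arrays. Without that array *Rgs1*, *Rgs18* and *Rgs19* were still called lower, and *Rgs4* was no longer called higher. The adipocyte hormone gene *Adipoq*, a mark of the labelled tissue, lay between 10.59 and 12.48 on every array.

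Promoter sequences are shown for the members that met the thresholds in either direction and have an entry in the RefSeq table used here, which are *Rgs4* and *Rgs19*, and for *Rgs5*, which lies next to *Rgs4*. Each window runs from 250 bases before to 50 bases after the annotated start, 5′ to 3′ on the strand of the gene, in build GRCm38.p6. The *Rgs4* window is chr1:169747593-169747892 on the minus strand, that of *Rgs5* is chr1:169655251-169655550 on the plus strand, and the first of 3 *Rgs19* windows is chr2:181693928-181694227 on the minus strand. Capitals mark the TATA box searched as TATAAA, the CCAAT box searched by those letters, the GC box searched as GGGCGG, and TGACG, one arm of the palindromic cyclic AMP response element. Each was searched on both strands.
Rgs4: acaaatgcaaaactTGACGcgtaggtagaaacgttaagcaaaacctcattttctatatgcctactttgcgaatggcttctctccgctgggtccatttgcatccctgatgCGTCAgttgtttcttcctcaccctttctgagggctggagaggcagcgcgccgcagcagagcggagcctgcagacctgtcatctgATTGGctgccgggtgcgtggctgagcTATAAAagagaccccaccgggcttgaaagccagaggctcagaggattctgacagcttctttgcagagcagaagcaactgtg
Rgs5: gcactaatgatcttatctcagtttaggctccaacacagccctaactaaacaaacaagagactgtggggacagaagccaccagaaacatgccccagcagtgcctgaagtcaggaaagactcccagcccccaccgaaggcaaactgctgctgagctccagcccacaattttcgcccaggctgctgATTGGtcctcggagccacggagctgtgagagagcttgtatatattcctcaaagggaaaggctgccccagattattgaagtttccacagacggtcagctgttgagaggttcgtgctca
Rgs19: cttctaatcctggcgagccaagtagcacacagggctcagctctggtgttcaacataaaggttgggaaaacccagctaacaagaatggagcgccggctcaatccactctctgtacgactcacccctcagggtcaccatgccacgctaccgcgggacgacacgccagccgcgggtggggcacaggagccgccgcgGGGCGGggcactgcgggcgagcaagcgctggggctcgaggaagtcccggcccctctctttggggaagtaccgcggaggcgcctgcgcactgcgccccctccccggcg
The *Rgs4* window held 1 TATA box, 1 CCAAT box and 2 cyclic AMP response arms. The *Rgs5* window held 1 CCAAT box, and the *Rgs19* window shown held 1 GC box. None of the marked matches overlap. Among 32851 mouse promoter windows of 300 bases, 13.6% held the TATA box letters, 37.4% those of the CCAAT box, 35.7% those of the GC box and 20.8% the cyclic AMP response arm. GC content was 53.0% for *Rgs4*, 52.3% for *Rgs5* and 66.7% for the *Rgs19* window shown, and the median over all windows was 52.7%. The *Rgs19* windows not shown held 2 and 0 GC boxes, with a GC content of 72.7% and 53.3%. The CArG box, bound by serum response factor in smooth muscle genes, had no match in the 3 windows shown and was present in 1.63% of all windows. These matches are a description of the letters in the windows. Of the 10 genes, 7 had an entry in the table; *Rgs1*, *Rgs14* and *Rgs18* had none.

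*Rgs1* and *Rgs18* were far lower in *ob/ob/Fsp27*-/- GWAT, by 37.8-fold and 16.4-fold, *Rgs19* was lower by 1.63-fold, and *Rgs4* was higher by 1.63-fold. The other 5 measured genes differed by less than 1.5-fold. A gene was called when its limma adjusted p was under 0.05 and its log2 fold change at least 0.5 in size. By that rule 3 of the 9 genes were called lower and 1 higher, where 10.8% of all genes were called lower, 9.58% higher and 20.4% in either direction. The values of the 2 genotypes did not overlap in 6 of the 9, against 46.0% of all genes. Because *Rgs1* was selected on this same comparison, these counts describe the genes and nothing is read from them, and no p is given for any of the 9. Their median log2 fold change was −0.24, and the median over all genes was 0.06.

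**Figure D1:**
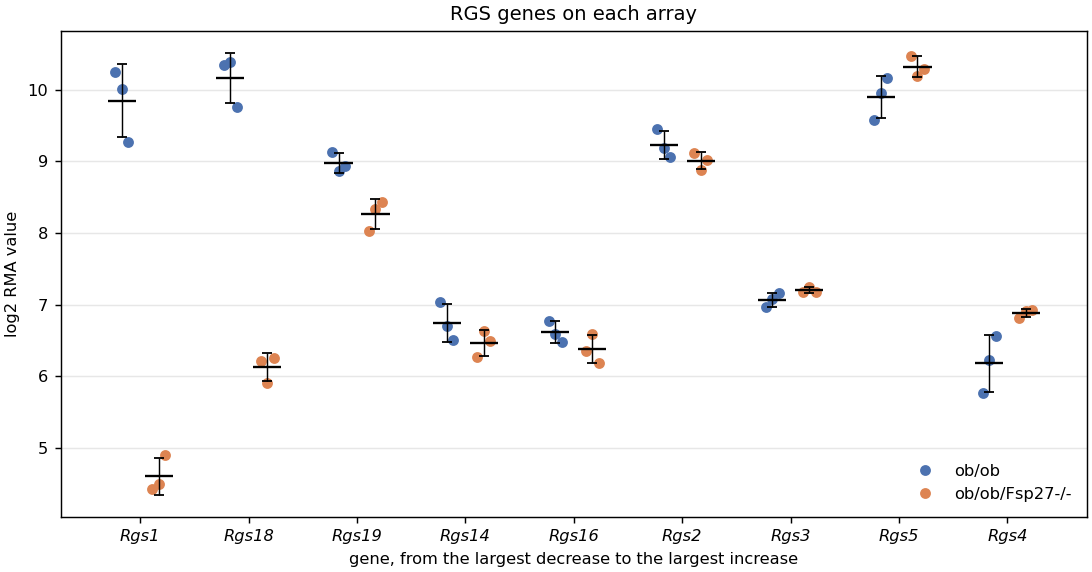
Each point is 1 array; the y axis is the log2 RMA value and the x axis gives the 9 measured RGS genes, from the largest decrease to the largest increase. Bars are the mean ± SD of 3 arrays per genotype; *Rgs1* and *Rgs18* show a wide gap between genotypes, *Rgs2*, *Rgs14* and *Rgs16* overlap, and heights of different genes cannot be compared because each has its own probes.

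*Rgs1* encodes an R4 protein of leukocytes that dampens their responses to chemokines. Its values were 10.25, 10.02 and 9.27 on the *ob/ob* arrays and 4.43, 4.49 and 4.90 on the *ob/ob/Fsp27*-/- arrays. All 3 *ob/ob* arrays were high and all 3 *ob/ob/Fsp27*-/- arrays low, with no overlap. The means were 9.85 ± 0.51 (SD, n = 3) and 4.61 ± 0.25 (SD, n = 3), and the log2 fold change was −5.24 with a standard error of 0.26. In *ob/ob* GWAT the mean stood at the 93.6th percentile of all values of the table, and in *ob/ob/Fsp27*-/- GWAT at the 25.4th. Among decreases *Rgs1* was second of 19937 genes, after *Mmp12* (macrophage elastase) at −5.49 and before *Gpr50*, an orphan receptor gene, at −4.99. No detection call was available, so how far the lower level stands above array background is not known.

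*Rgs18*, an R4 gene of platelets, megakaryocytes and myeloid cells, showed the same arrangement. The *ob/ob* arrays read 10.34, 10.38 and 9.77, and the *ob/ob/Fsp27*-/- arrays read 6.22, 5.91 and 6.26. No array of one genotype came near the other genotype, and the log2 fold change was −4.03 (SE 0.18), the 17th largest decrease. The means were 10.16 ± 0.35 (SD, n = 3) and 6.13 ± 0.19 (SD, n = 3). The *ob/ob/Fsp27*-/- mean lay at the 50.9th percentile of all values of the table.

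*Rgs19*, also named GAIP, encodes an RZ protein that acts on Gi-class subunits and is anchored to membranes by a string of cysteines. Values of 9.13, 8.86 and 8.93 in *ob/ob* and 8.03, 8.34 and 8.43 in *ob/ob/Fsp27*-/- GWAT gave a log2 fold change of −0.71 (SE 0.13). The groups did not overlap, but the change was small beside that of *Rgs1*. Its rank from the largest decrease was 1533 among all 19937 genes, called or not, of which 2158 were called lower.

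*Rgs4*, an R4 regulator of Gi and Gq signals in neurons, heart and smooth muscle, was the member with the largest increase. Its values were 5.77, 6.23 and 6.56 in *ob/ob* and 6.82, 6.91 and 6.93 in *ob/ob/Fsp27*-/- GWAT. The *ob/ob* arrays were widely spread and all below the *ob/ob/Fsp27*-/- arrays, which were close together. The log2 fold change was 0.70 (SE 0.19), and the SD was 0.40 on the *ob/ob* arrays against 0.060 on the others. This call was lost on leaving out *ob/ob* array 1, *ob/ob* array 2 or any of the 3 *ob/ob/Fsp27*-/- arrays, with a log2 fold change between 0.49 and 0.89 over the 6 omissions.

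*Rgs5*, the pericyte gene, pointed the same way without being called. Values were 9.58, 9.95 and 10.16 in *ob/ob* and 10.48, 10.20 and 10.29 in *ob/ob/Fsp27*-/- GWAT. The genotypes did not overlap, although *ob/ob* array 3 and *ob/ob/Fsp27*-/- array 2 differed by little. The log2 fold change was 0.43 (SE 0.16). Without *ob/ob* array 3 it was 0.56 and both *Rgs4* and *Rgs5* met the thresholds.

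*Rgs3*, an R4 gene with long isoforms that carry further domains, was measured by 2 probesets. The brighter read 6.97, 7.08 and 7.16 in *ob/ob* and 7.18, 7.25 and 7.18 in *ob/ob/Fsp27*-/- GWAT, a log2 fold change of 0.13 (SE 0.082). The other read 6.43, 6.39 and 6.56 against 6.91, 6.93 and 6.79, a log2 fold change of 0.42 (SE 0.085). Neither probeset overlapped between genotypes, and neither reached the fold threshold. Which *Rgs3* transcripts each probeset covers is not given in the sources used here.

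The 3 remaining genes had overlapping genotypes. *Rgs2*, a selective regulator of Gq that is known for lowering vascular tone, read 9.45, 9.19 and 9.06 in *ob/ob* and 9.12, 8.88 and 9.01 in *ob/ob/Fsp27*-/- GWAT, a log2 fold change of −0.23 (SE 0.12). *Rgs14*, which joins an RGS box to a GoLoco motif that holds Gi subunits in the GDP form, read 7.03, 6.71 and 6.50 against 6.27, 6.63 and 6.49 (−0.28, SE 0.16). *Rgs16*, an inducible R4 gene, read 6.78, 6.60 and 6.49 against 6.36, 6.59 and 6.19 (−0.24, SE 0.13). In each of these genes at least 1 *ob/ob/Fsp27*-/- array lay above the lowest *ob/ob* array.

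GWAT is a mixture of cells, and in bulk RNA fewer cells of a type and less RNA per cell cannot be told apart. Macrophage markers moved with *Rgs1* and *Rgs18*: 15 of 16 were called lower with a median log2 fold change of −2.07, and their mean level was 10.34 to 10.48 on the *ob/ob* arrays and 8.07 to 8.32 on the others. *Adgre1*, which encodes F4/80, fell by 3.21 on the log2 scale (limma adjusted p = 7.82e-06) and still read 8.28 to 8.37 in *ob/ob/Fsp27*-/- GWAT. Platelet markers were called lower in 2 of 7, where 10.8% of all genes were called lower. Among them was *Pf4* (platelet factor 4), which fell by 1.58 (limma adjusted p = 8.56e-05). Its values were 9.79 to 9.93 in *ob/ob* and 8.14 to 8.42 in *ob/ob/Fsp27*-/- GWAT. The other called gene was *Itgb3* at −0.69 (limma adjusted p = 0.0284). *Itga2b*, *Gp9*, *Treml1* and *Gp5* lay between −0.03 and 0.07, and *Ppbp* stood at 0.49 (adjusted p = 0.058). The median of the 7 was −0.01.

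Lymphocyte markers are relevant because B and T cells also express *Rgs1*. In the B-cell group 1 of 9 was called lower, the inhibitory receptor gene *Cd22* at −0.56 (adjusted p = 0.0303), and 1 higher, the transcription factor gene *Ebf1* at 0.59 (adjusted p = 0.00817), which adipocytes also express; the mean level was 5.80 to 5.97 in *ob/ob* and 6.02 to 6.97 in *ob/ob/Fsp27*-/- GWAT. The median of the 9 was 0.63, and 6 of them were higher and 1 lower at an unadjusted p under 0.05. The share called in this group was 22.2%, near the 20.4% of all genes. In the T-cell and NK-cell group 0 of 10 were called by limma, and 2 were lower at an unadjusted p under 0.05, with a median of −0.07. *Cd3e*, a chain of the T-cell receptor complex, had a log2 fold change of −0.25 (SE 0.14, adjusted p = 0.244). The part of each of these cell types in the *Rgs1* and *Rgs18* values was not tested.

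Markers of the vessel wall, endothelium and fat cells moved with *Rgs4* and *Rgs5*. Over all genes, for comparison, 9.58% were called higher and 10.8% lower. Pericyte and smooth muscle markers were called higher in 6 of 13, with a median of 0.32 and a mean level of 7.47 to 7.68 in *ob/ob* and 7.96 to 8.11 in *ob/ob/Fsp27*-/- GWAT. The 6 were *Tagln*, *Myh11*, *Cnn1* and *Des* of the contractile apparatus and cytoskeleton, and the potassium channel genes *Kcnj8* and *Abcc9*. *Pdgfrb*, a receptor gene listed here as a pericyte marker, went the other way at −0.44 (SE 0.073, limma adjusted p = 0.00401), which is under the fold threshold. *Acta2* (smooth muscle actin) stood at 0.22 (adjusted p = 0.326). Endothelial markers were called higher in 7 of 12 with a median of 0.69, and *Pecam1* stood at 0.41 (adjusted p = 0.14). Among adipocyte markers 6 of 9 were called higher, with a median of 0.86 and *Adipoq* at 1.20 (SE 0.25, adjusted p = 0.0109). Stromal progenitor markers were called lower in 4 of 8, including *Pdgfra* at −0.52 (SE 0.12, adjusted p = 0.0173). Their part in the *Rgs4* and *Rgs5* values was not tested.

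Within *ob/ob* the arrays were not alike, for the RGS genes and for marker groups as well. *ob/ob* array 1 was the lowest of the 3 for 9 of 9 adipocyte markers and 11 of 12 endothelial markers. *ob/ob* array 1 was the highest of the 3 *ob/ob* arrays for *Rgs1*, *Rgs2*, *Rgs14*, *Rgs16* and *Rgs19* and the lowest for *Rgs3*, *Rgs4* and *Rgs5*. For *Rgs18* the highest was *ob/ob* array 2. In 8 of the 9 genes *ob/ob* array 3 was the *ob/ob* array nearest to the *ob/ob/Fsp27*-/- mean. The share of all genes with this order was not counted. *Rgs1* deviated from the *ob/ob* mean by 0.41 on array 1 and −0.58 on array 3, and *Rgs4* by −0.42 and 0.38. The mean of the adipocyte markers deviated by −0.43 and 0.35 on the same arrays, and that of the endothelial markers by −0.32 and 0.18. For the T-cell and NK-cell markers it was 0.25 and −0.28, and for the macrophage markers 0.06 and −0.08. The small macrophage mean joins markers of opposite order. *ob/ob* array 1 was the highest of the 3 for 8 of the 16 macrophage markers and the lowest for 5. For example, *Itgax* read 10.82, 10.63 and 10.11 on the *ob/ob* arrays, and *Cd163* read 7.01, 7.57 and 8.02. Among the *ob/ob/Fsp27*-/- arrays the largest deviation of any of the 9 genes was the 0.29 of *Rgs1* on array 3. Whether the make-up of the pools bears on this was not tested.

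**Figure D2:**
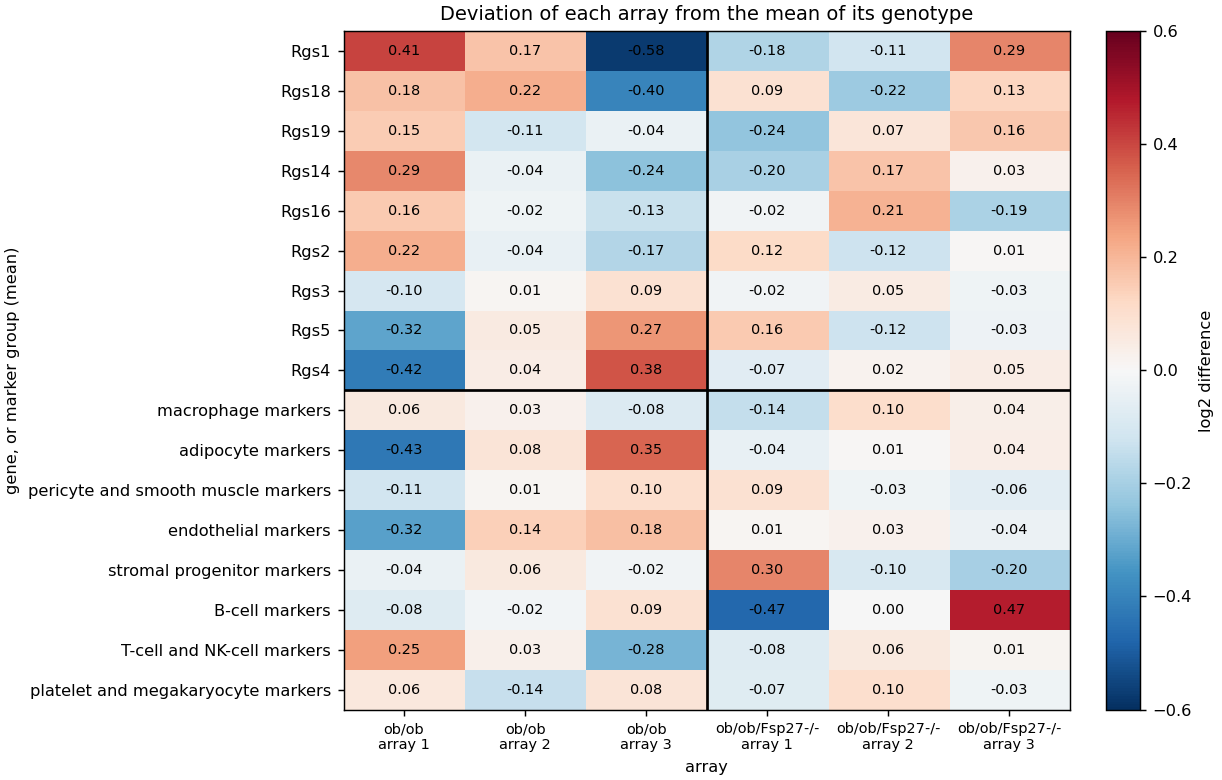
Each cell is the log2 difference of an array from the mean of its genotype, for 9 RGS genes (above the line) and for the mean of each marker group (below the line); columns are the 6 arrays. *Rgs4* and *Rgs5* are low on *ob/ob* array 1, where the adipocyte and endothelial markers are also low, and *Rgs1* is high there; the *ob/ob/Fsp27*-/- arrays vary less for *Rgs4*.

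Several RGS genes lie next to each other on chromosome 1, and the changes of neighbours were of very different size. *Rgs2*, *Rgs13*, *Rgs1*, *Rgs21* and *Rgs18* follow each other as 5 consecutive protein-coding genes in the RefSeq order. The log2 fold changes in that order were −0.23 for *Rgs2*, −0.61 for *Rgs13*, −5.24 for *Rgs1*, 0.03 for *Rgs21* and −4.03 for *Rgs18*. *Rgs21*, a gene of taste tissue, thus sits between the pair with the large decreases and read 3.47 to 3.63 on all 6 arrays. Its mean stood at the 8.57th percentile of all values in *ob/ob* and the 9.02nd in *ob/ob/Fsp27*-/- GWAT. At so low a level a decrease could hardly be seen. *Rgs13* was dim too, its means standing at the 18.2nd percentile in *ob/ob* and the 8.77th in *ob/ob/Fsp27*-/- GWAT. The size of its decrease can therefore not be set against that of *Rgs1*. Beyond the ends of this run, *Uchl5* (a deubiquitinase gene) stood at −0.48 (limma adjusted p = 0.0673) and *Brinp3* at 0.06 (adjusted p = 0.708). The mean level of *Brinp3* was also low, at 3.87.

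A second pair, *Rgs8* and *Rgs16*, stood at 0.02 and −0.24. Their neighbour *Npl*, which encodes N-acetylneuraminate pyruvate lyase, fell by 2.54 (SE 0.20, adjusted p = 0.00019). The third pair comprises *Rgs5* and *Rgs4*, at 0.43 and 0.70, on opposite strands and with no protein-coding gene between them. *Nuf2*, a kinetochore gene on the *Rgs5* side, fell by 1.12 (SE 0.16, adjusted p = 0.00234), and *Ccdc190* on the *Rgs4* side stood at 0.21 (adjusted p = 0.154). Both genes of this pair had non-overlapping values in the upward direction. The neighbours *Rgs13* and *Rgs1* of the first run had them in the downward direction. Over all genes, 46.0% had non-overlapping values.

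**Figure D3:**
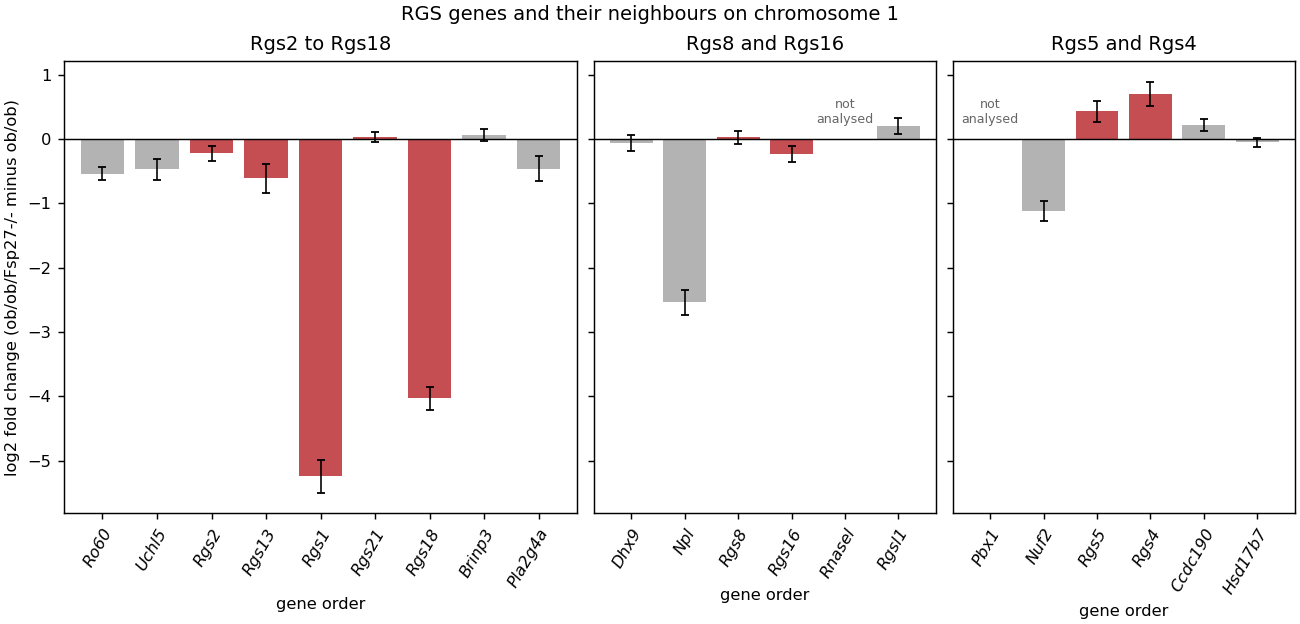
Bars are log2 fold changes (*ob/ob/Fsp27*-/- minus *ob/ob*) with limma standard errors, in gene order along chromosome 1 for 3 stretches; the x axis shows order and not distance, RGS genes are red and other genes grey. *Rgs1* and *Rgs18* reach −5.24 and −4.03 while *Rgs21* between them, whose level was low in both genotypes, is at 0.03. Genes without a value here are written as not analysed.

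The rest of the family held few calls. Of 13 other genes named for RGS, 1 was called, *Rgs12*, a large R12 protein with several binding domains. It read 6.46, 6.77 and 6.68 in *ob/ob* and 7.21, 7.07 and 7.19 in *ob/ob/Fsp27*-/- GWAT, with no overlap, a log2 fold change of 0.52 (SE 0.10) and an adjusted p of 0.00821. This call was lost without array 1 of either genotype and with array weights. No gene of this group was called lower by limma, and 1 was lower at an unadjusted p under 0.05. The group's share called was 7.69% against 20.4% of all genes, and its median was 0.13. Much of the group was dim. The means of 8 of the 13 exceeded the 30th percentile of the table, and those of 2 exceeded its median. Among dim genes a change could hardly be seen, so nothing is read from the low share.

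*Rgs13*, a regulator known from germinal centre B cells and mast cells, read 4.70, 4.04 and 3.72 in *ob/ob* and 3.47, 3.63 and 3.51 in *ob/ob/Fsp27*-/- GWAT (adjusted p = 0.0894). Its genotypes did not overlap, and *ob/ob* array 1 was the highest. *Rgs7bp*, which encodes a membrane anchor of R7 proteins, read 6.20, 7.23 and 8.01 against 8.53, 8.71 and 8.07. The log2 fold change of 1.29 was the largest of these genes, with an SD of 0.91 on the *ob/ob* arrays and an adjusted p of 0.0598. It was called when probesets below the 30th percentile or the median were left out, with adjusted p of 0.0449 and 0.035. *Rgs22* read 6.93 on *ob/ob/Fsp27*-/- array 1 and 4.65 to 5.46 on the other 5 arrays, with an adjusted p of 0.461. That is the array on which the ciliated epithelium genes were highest, and for example the epithelial adhesion gene *Epcam* read 7.89 there and 4.54 to 5.87 elsewhere; the part of such tissue in the *Rgs22* value was not tested.

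The R7 genes work as partners of Gβ5, and none of the 4 was called by limma. *Rgs6* stood at 0.24 (adjusted p = 0.275), *Rgs7* at −0.28 (adjusted p = 0.405), *Rgs9* at 0.14 (adjusted p = 0.378) and *Rgs11* at 0.15 (adjusted p = 0.533). *Rgs8*, *Rgs17*, *Rgs20*, *Rgs21* and the anchor gene *Rgs9bp* lay between −0.14 and 0.13, with adjusted p from 0.303 to 0.879.

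The G proteins that RGS proteins act on changed in both directions. Of 28 measured subunit genes 4 were called higher and 8 lower (42.9% called, against 20.4% of all genes), with a median of −0.13. *Gnb5*, which encodes Gβ5, read 7.80, 8.16 and 8.46 in *ob/ob* and 9.49, 9.39 and 9.47 in *ob/ob/Fsp27*-/- GWAT, an increase of 1.31 (SE 0.16, adjusted p = 0.00119). The Gi-class genes *Gnao1* and *Gnai1* rose by 1.61 (SE 0.24, adjusted p = 0.00273) and 0.82 (SE 0.16, adjusted p = 0.00828), and *Gna11* of the Gq class by 0.64 (SE 0.15, adjusted p = 0.0172). Of the same Gi class *Gnai2* and *Gnai3* were called lower, at −0.73 (SE 0.081, adjusted p = 0.000767) and −0.76 (adjusted p = 0.00259). The largest decreases were in *Gnal*, a Gs-class gene, at −1.19 (adjusted p = 0.000155), the γ subunit gene *Gng2* at −0.99 (adjusted p = 0.0016), the blood cell Gq-class gene *Gna15* at −0.99 (adjusted p = 0.00871) and *Gna13* at −0.83 (adjusted p = 0.00197).

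Other proteins that end or modify receptor signals showed a similar mixture. Among 20 measured genes of arrestins, receptor kinases and further RGS-box or GoLoco proteins, 5 were called lower and 1 higher, with a median of 0.03. The shares over all genes were 10.8% lower and 9.58% higher. *Arrb2*, which encodes β-arrestin 2, read 9.28, 9.30 and 9.11 in *ob/ob* and 7.91, 8.07 and 8.08 in *ob/ob/Fsp27*-/- GWAT, and fell by 1.21 (SE 0.092, adjusted p = 0.00018). Also lower were the GoLoco genes *Gpsm2* at −0.96 (adjusted p = 0.00165) and *Gpsm3* at −0.66 (adjusted p = 0.0265), the latter being expressed in leukocytes, and the anchoring protein gene *Akap10* at −0.74 (adjusted p = 0.00158). *Axin2*, whose RGS box serves Wnt signalling and not GTP hydrolysis, rose by 1.21 (SE 0.16, adjusted p = 0.0015).

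Downstream effectors were called lower in 7 of 23 and higher in 3 (43.5% called, against 20.4% of all genes), with a median of 0.12. Protein kinase C genes *Prkcb* and *Prkcd* fell by 2.41 (SE 0.27, adjusted p = 0.000755) and 2.08 (SE 0.12, adjusted p = 6.77e-05), and *Adcy7*, the adenylyl cyclase of blood cells, by 2.32 (SE 0.16, adjusted p = 0.000132). *Rap1b*, a small GTPase gene, fell by 1.05 (adjusted p = 0.000386). Another cyclase gene, *Adcy6*, rose by 1.08 (SE 0.18, adjusted p = 0.00407), together with phospholipase *Plcb1* at 0.82 (adjusted p = 0.0152) and the Rap exchange factor gene *Rasgrp2* at 0.80 (adjusted p = 0.0135).

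Receptors completed the pathway. Of 24 measured receptor genes of leukocytes 10 were called lower and 2 higher, with a median of −0.29. For comparison, 10.8% of all genes were called lower and 9.58% higher. *C3ar1*, the receptor for complement C3a, read 12.16, 12.10 and 11.88 in *ob/ob* and 8.94, 9.01 and 8.87 in *ob/ob/Fsp27*-/- GWAT, and fell by 3.10 (SE 0.098, adjusted p = 1.65e-05). Also lower were the UDP receptor gene *P2ry6* at −2.64 (adjusted p = 2.57e-05), the proton sensor gene *Gpr65* at −2.62 (adjusted p = 0.000156) and the chemokine receptor gene *Ccr1* at −2.29 (adjusted p = 0.000124). *Hcar2*, a receptor for hydroxybutyrate that adipocytes also carry, rose by 1.01 (adjusted p = 0.0045), and the lysophosphatidic acid receptor gene *Lpar6* by 0.67 (adjusted p = 0.0165).

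Of 17 measured receptor genes of vessels and adipocytes 2 were called higher and 3 lower, with a median of 0.07. The share called was 29.4%, not far from the 20.4% of all genes. Receptors for prostaglandin E2 moved in opposite directions: *Ptger3* rose by 2.06 (SE 0.31, adjusted p = 0.00273), whereas *Ptger4* fell by 1.40 (SE 0.095, adjusted p = 0.000124) and *Ptger2* by 0.73 (SE 0.16, adjusted p = 0.0119). *F2r*, a thrombin receptor gene, rose by 1.16 (adjusted p = 0.00512), and the sphingosine 1-phosphate receptor gene *S1pr2* fell by 1.39 (adjusted p = 0.000666). Most adrenergic receptor genes of this group were among the 11 not analysed here.

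**Figure D4:**
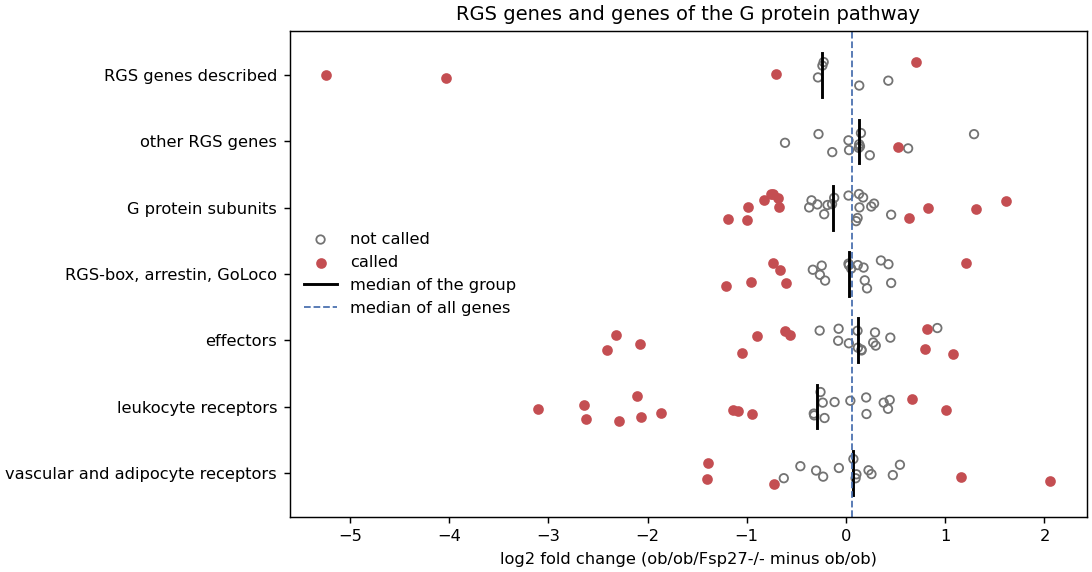
Each point is 1 gene at its log2 fold change (x axis, *ob/ob/Fsp27*-/- minus *ob/ob*); filled points met the call thresholds, black bars are group medians and the dashed line is the median of all genes at 0.06. *Rgs1* and *Rgs18* lie at the far left, and the other 7 measured genes of the first group lie between −0.71 and 0.70. Of the 24 measured leukocyte receptors 10 were called lower, against 10.8% of all genes.

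Genes whose pattern over the 6 arrays was most like that of *Rgs1* were sought by centring each gene on its own mean and taking the root mean square (RMS) difference, with the pathway genes left out. The 5 nearest were *Tm4sf19* (RMS 0.18), a tetraspanin-like gene of osteoclasts and macrophages, *Atp6v0d2* (0.29), a proton pump subunit gene of the same cells, the adaptor gene *Stap1* (0.39), the interleukin 7 receptor gene *Il7r* (0.45) and *Mmp12* (0.45). *Tm4sf19* read 11.57, 11.14 and 10.79 in *ob/ob* and 5.93, 6.02 and 6.60 in *ob/ob/Fsp27*-/- GWAT. *Rgs18* stood at an RMS of 0.63 from *Rgs1*, and the other 7 members at 2.28 or more. Since large decreases are few, closeness to *Rgs1* here reflects the size of the change as well as the spread within a genotype.

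For *Rgs4* the 5 nearest genes were *Fbxo36* (RMS 0.033), *Slc24a3* (0.043), *Dgat2* (0.052), *Trp53inp2* (0.055) and *Rab34* (0.057). *Dgat2*, the enzyme gene for the last step of triglyceride synthesis, read 11.92, 12.36 and 12.65 in *ob/ob* and 12.89, 12.96 and 12.93 in *ob/ob/Fsp27*-/- GWAT, with a wide spread in *ob/ob* as for *Rgs4*. *Rgs5* lay at an RMS of 0.19 from *Rgs4*. With the pathway genes left out, 868 genes were nearer to *Rgs4* than 0.2, so this pattern was common. The differences are not scaled by the size of the change, so those around *Rgs4*, whose change was small, cannot be set against those around *Rgs1*.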

How the data were processed

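The 6 arrays, 3 *ob/ob* and 3 *ob/ob/Fsp27*-/-, were grouped by their labels and numbered within a genotype in accession order, which pairs nothing. The deposited log2 values were made by the authors with background adjustment, quantile normalization and RMA summary. Their detection filter was not repeated, and software versions and a genome build are not given in the labels or methods. Of 34760 probesets, 22961 with a symbol were fitted with limma 3.58.1 in R 4.3.3 (lmFit and eBayes, no covariates) with Benjamini-Hochberg adjustment over all of them, and genes were counted over the 21640 with 1 symbol. The means of all 9 measured members exceeded the 30th percentile of the table (4.89) and its median (6.07). *Rgs1* did so only through its *ob/ob* arrays, its *ob/ob/Fsp27*-/- mean being 4.61, so its call under these filters is no support. The script was tested on simulated data. Alternatives were 2 filters on dim probesets, median centring, cyclic loess, a trended prior, array weights, all probesets, the mean of a gene's probesets, a log2 fold threshold of 1 and leaving out each array in turn. Members, gene lists and tests were chosen with earlier results of these data known. Named were all members, every other RGS gene, up to 4 called genes per pathway list and direction with the largest changes, the 5 genes nearest in pattern to *Rgs1* and to *Rgs4*, and defining markers; *Gpr50*, *Epcam*, the called pericyte markers and other genes beside these were chosen after their values were seen. Promoters are from RefSeq, and gene order is that of the RefSeq table for GRCm38.p6. Plots were made in Python 3.11.15 using matplotlib 3.10.9.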

Additional observations from a re-analysis of the deposited data

How the results depend on the processing

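*Rgs1*, *Rgs18* and *Rgs19* stayed the 3 members called lower under every alternative (for *Rgs1* the dim filters could not test this) except the log2 fold threshold of 1, at which *Rgs19* was no longer called and 2 remained. Over the omissions of 1 array their log2 fold changes ran from −5.53 to −5.04 for *Rgs1*, −4.23 to −3.92 for *Rgs18* and −0.79 to −0.59 for *Rgs19*. The count of members called higher, 1 at the reported setting, was 0 at the fold threshold of 1 and 0 to 2 over the omissions. *Rgs3* moved to 0.27 with the mean of its probesets. For the 13 other RGS genes the count of 1 became 2 under both filters on dim probesets, where *Rgs7bp* joined *Rgs12*. These filters left 8 genes at the 30th percentile and 2 at the median. The count was 0 at the fold threshold of 1, and with array weights *Rgs7bp* was called and *Rgs12* was not. Over the omissions that count was 0 to 3, with *Rgs12* lost on omitting array 1 of either genotype, *Rgs13* and *Rgs7bp* added without *ob/ob* array 3, and *Rgs7* added without *ob/ob/Fsp27*-/- array 3. At the fold threshold of 1 the calls fell to 3 G protein subunits, 2 arrestin, RGS-box or GoLoco genes and 5 effectors. Calls over all 19937 genes fell at that threshold too, from 1910 higher and 2158 lower to 652 higher and 955 lower. Over the omissions these lists had 11 to 13, 5 to 7 and 8 to 11 calls, leukocyte receptors 11 to 14 and vascular and adipocyte receptors 5 to 7. No member called at the reported setting changed direction, and the cause of these changes was not tested. Samples carried no shared replicate numbers. No paired analysis was possible because the labels give each array a number of its own. Arrays have no read depth, and 3 per genotype limit the precision of small changes such as those of *Rgs4* and *Rgs5*.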
